A study of Mus musculus with 18 samples.

Results

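The stroke response of the dura mater was compared between mast cell-deficient and wild-type mice. For each gene, the change from naive to stroke dura in deficient mice was set against the same change in wild-type mice, and the second was subtracted from the first. The estimate rested on 12 of the 18 arrays of the series, with 3 arrays, 1 mouse each, in each of 4 groups. No gene was selected beforehand: all 21640 probe sets with exactly 1 gene symbol, which stand for 19937 genes, were tested. Values are on the log2 scale, so that 1 unit is a 2-fold change. A difference below 0 means that the value was less raised, or more lowered, by stroke in deficient than in wild-type dura.

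The deficient mice were WBB6F1-KitW/W-v, which carry the W and W-v alleles of the receptor gene Kit. The wild-type mice were WBB6F1-Kit+/+, of the same background. Engrafted mice, which do not enter the estimate and are given beside it, were WBB6F1-KitW/W-v animals that had been given mast cells by intravenous injection 8 to 10 weeks earlier. All were males of 17 to 21 weeks, perfused with buffered saline before the dura was removed. Stroke mice had a filament placed in the middle cerebral artery for 30 minutes, and their dura was taken 2 days later. Naive mice were matched for age, and no sham-operated mice were analysed here, so that every stroke response includes any effect of surgery. The Kit alleles are carried in every cell of the deficient and the engrafted mice, and Kit is also used by blood cell precursors, melanocytes and germ cells, so that the deficient group differs from wild type in more than its mast cells. The study asked how mast cells bear on the response of the meninges to stroke.

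Mast cells are tissue-resident immune cells packed with granules of histamine, proteases and proteoglycans, and the dura is rich in them. They depend on Kit and on its ligand, stem cell factor. The dura is a sheet of collagen made by fibroblasts, with blood vessels, lymphatic vessels and resident macrophages, and it lies outside the blood-brain barrier. After a stroke, injured tissue releases signals that draw neutrophils and then monocytes from the blood, and fibroblasts, macrophages and vessel cells switch on matrix proteases, their inhibitors and growth factors as repair begins.

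The array values ran from 3.42 to 14.06, the array medians from 7.77 to 7.91, and the r between replicate arrays from 0.984 to 0.996. Markers of dural fibroblasts were high in every array, at 11.6 to 12.1 as a mean over the list. Cpa3, the carboxypeptidase of connective-tissue mast cells, read 5.67, 5.82 and 5.74 in deficient stroke dura and 5.82, 5.66 and 5.80 in deficient naive dura, against 9.17, 9.29 and 8.39 in wild-type stroke dura and 9.79, 9.13 and 9.41 in wild-type naive dura. The deficient arrays lay below all wild-type arrays. The Kit probe set is a weaker check, since neither allele is known to remove the whole transcript. It read 8.63, 8.76 and 8.71 in deficient stroke dura and 8.98, 8.91 and 9.19 in deficient naive dura, against 9.17, 8.92 and 8.80 in wild-type stroke dura and 9.41, 9.83 and 9.36 in wild-type naive dura. For the difference in stroke response, 0 of the 22 measured mast cell markers passed an adjusted p of 0.05 (limma). At an unadjusted p under 0.05 there were also 0 of 22. The shares over all tested probe sets were 0.351% and 7.35%, so that few would be expected among 22 genes. The median difference of the 22 markers was 0.21, with 0.48 ± 0.52 (SE) for Cpa3, 0.24 ± 0.21 for Kit, 1.01 ± 0.52 for the mast cell protease Mcpt4 and 0.89 ± 0.50 for Mcpt2. The deficient means of Cpa3, Mcpt4 and Mcpt2 were 5.06 to 5.84 across stroke and naive dura. They lay in the dim range, below 6.09, so that a response of these genes in deficient dura could not be resolved.

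Arrays also differed in tissue carried along with the dura. Ttr, a defining gene of the choroid plexus, read 9.03 to 10.17 on 5 arrays and 13.03 to 13.78 on the other 13. The low arrays were deficient stroke 2, deficient naive 1, deficient naive 3, wild-type stroke 2 and engrafted naive 3. The mean over the choroid plexus list was 9.27, 11.60 and 11.60 in deficient stroke dura and 9.27, 9.31 and 11.92 in deficient naive dura, against 9.10, 11.61 and 12.06 in wild-type stroke dura and 11.55 to 11.64 in wild-type naive dura. The median difference of its 10 measured genes was 1.21, with 0 of 10 past the threshold and 0 of 10 at an unadjusted p under 0.05. The neuron list had a median of 0.43 and the same counts over its 10 genes. The part of this tissue in the results below was not tested beyond the alternatives given with them.

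**Figure D1:**
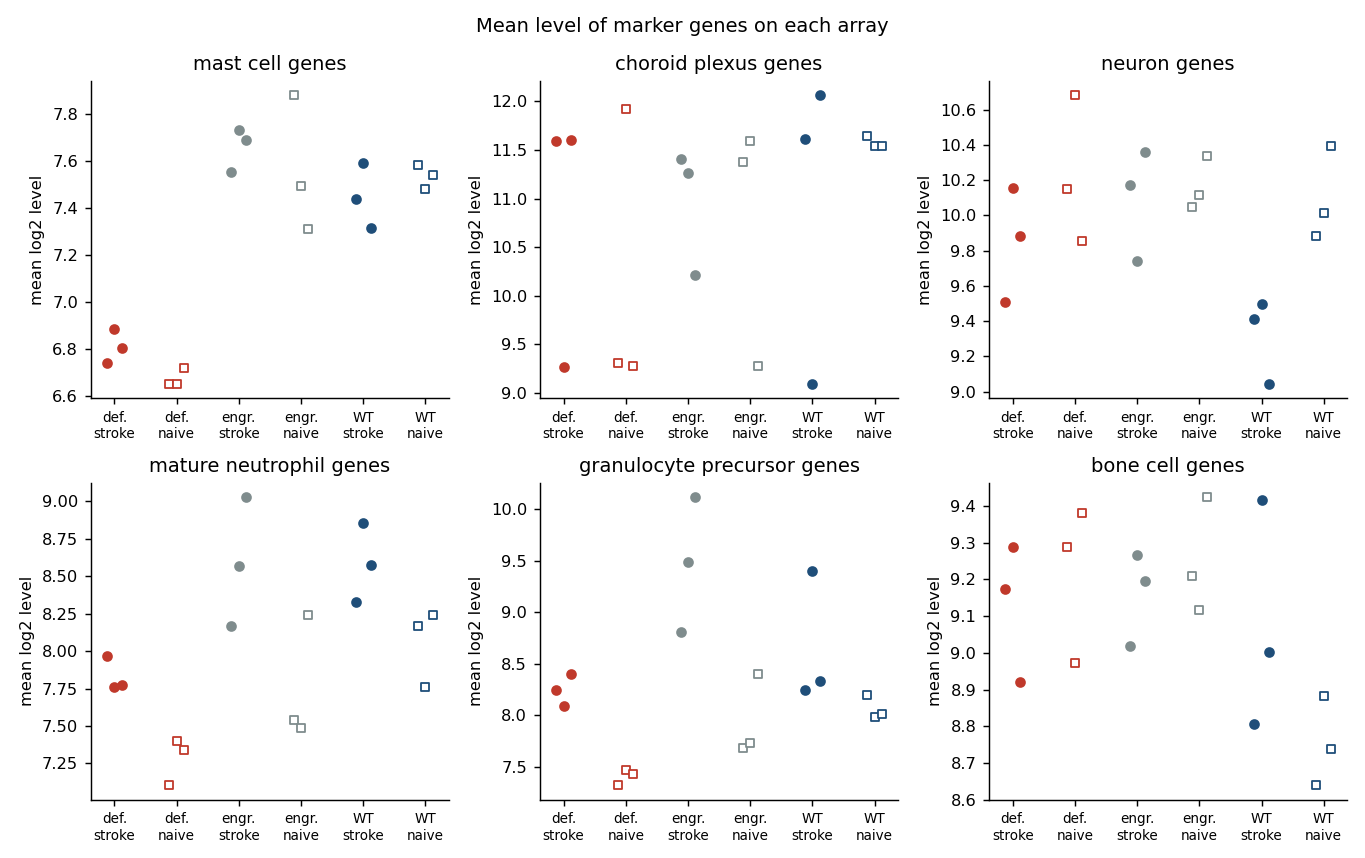
Mean log2 value of 6 marker lists (mast cell, choroid plexus, neuron, mature neutrophil, granulocyte precursor and bone cell) on each of the 18 arrays, by group, with 1 point per mouse and stroke left of naive in each category. The deficient arrays are lowest for mast cell markers, and 5 arrays from 4 of the 6 groups lie below the rest for choroid plexus markers.

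Each response was also counted on its own. In deficient dura 54 probe sets passed an adjusted p of 0.05 (limma with Benjamini-Hochberg adjustment), 27 higher and 27 lower after stroke, or 0.25% of those tested (0.125% in each direction). In wild-type dura 2352 passed, 1351 higher (6.24%) and 1001 lower (4.63%), or 10.9%. The standard deviation of the response across all tested probe sets was 0.18 in deficient and 0.29 in wild-type dura. Both estimates use the same number of arrays and share 1 estimate of the spread. The counts depended on the processing: with array weights they were 1326 in deficient and 2635 in wild-type dura, with covariates for choroid plexus and neuron genes 196 in deficient and 1457 in wild-type dura, and without the 5 arrays lowest in Ttr 15 in deficient and 1368 in wild-type dura. Leaving out 1 array gave 8 to 30 in deficient and 1371 to 2211 in wild-type dura. The responses share no arrays, and across probe sets they correlated with r of 0.62, which is a description over probe sets that are not independent.

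The difference passed the threshold for 76 probe sets of 76 genes, 0.351% of those tested. It was below 0 for 74 of them (0.342%) and above 0 for 2 (0.00924%). At an unadjusted p under 0.05 there were 1591 probe sets (7.35%), 657 higher and 934 lower, where 1082 would be expected if nothing differed. The median over all tested probe sets was 0.03, and the median standard error was 0.14. In a fit on the 12 arrays alone, 76 were again called, 3 higher and 73 lower, of which 59 were shared with the fit on 18 arrays. The count rested on single mice: it was 31 without deficient stroke 3, 34 without deficient naive 1, 38 without deficient stroke 2, 41 without wild-type naive 3, 43 without deficient naive 3, 44 without wild-type stroke 2 and 117 without deficient naive 2. With covariates for the choroid plexus and neuron lists 40 were called, 6 higher and 34 lower. Without the 5 arrays lowest in Ttr, which leaves 1 deficient naive array, 6 were called, all lower, and with array weights 305 were, 41 higher and 264 lower.

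**Figure D2:**
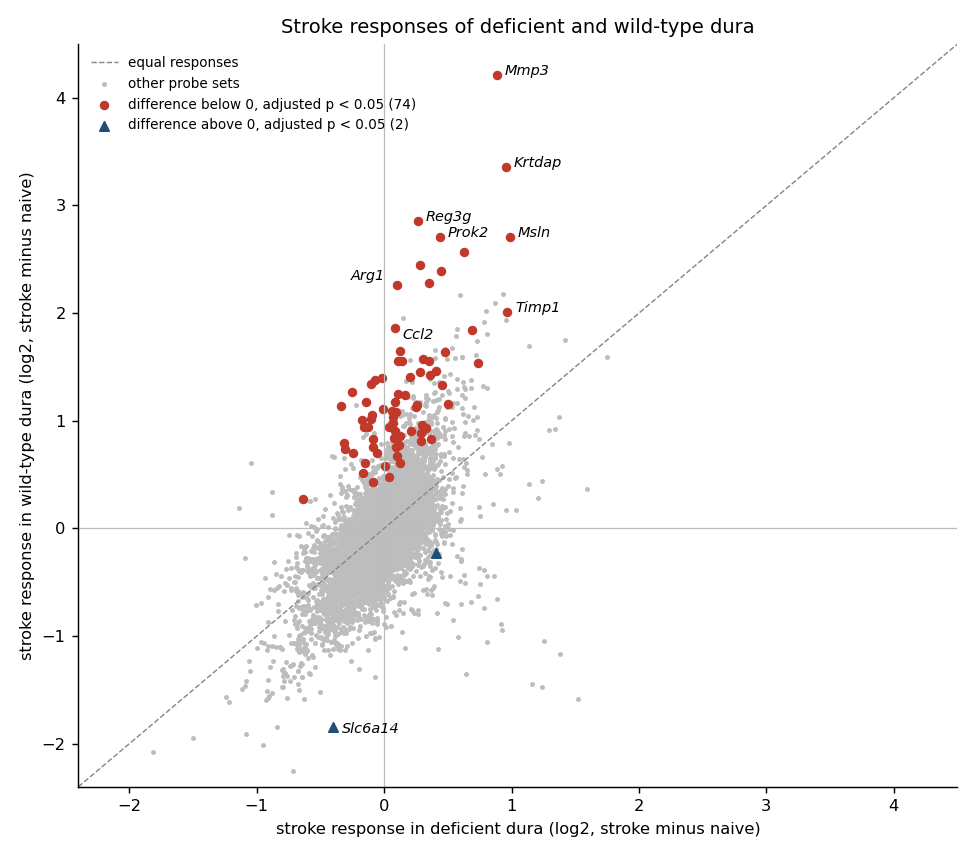
Stroke response of each tested probe set in deficient dura (x axis, log2) against the response in wild-type dura (y axis, log2), with the 74 genes of lower difference in red, the 2 of higher difference as blue triangles and a dashed line where both responses are equal. The red points lie above the line, with deficient responses of -0.63 to 0.99 and wild-type responses of 0.27 to 4.21.

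The 74 genes had a median difference of -1.06, with sizes of 0.44 to 3.32, and 41 had a size of at least 1. Their median response was 0.11 in deficient and 1.12 in wild-type dura. In deficient dura 52 of them had a response above 0 and 22 below 0. In wild-type dura all 74 were above 0. As a median over these genes, the categories differed little before stroke and more after it. Deficient minus wild type had a median of 0.10 in naive dura and -0.87 in stroke dura. For single genes the naive value ran from -0.41 for Serpinb1a to 0.92 for Mmp9, so that a gap before stroke entered some of the differences. Those values share arrays with the difference and only split it. In bulk tissue, fewer cells of a type and less RNA per cell cannot be told apart. The call was kept by 30 of the 76 genes whichever single array was left out, and lost by 46 without at least 1 array.

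The called gene of largest size was a protease of the extracellular matrix. Mmp3, stromelysin-1, is a secreted metalloproteinase that cleaves proteoglycans, fibronectin and other proteases' proforms, and in many tissues it comes from fibroblasts. It read 8.21, 7.56 and 7.34 in deficient stroke dura and 6.76, 6.73 and 6.98 in deficient naive dura, against 10.83, 11.09 and 11.12 in wild-type stroke dura and 6.72, 6.91 and 6.79 in wild-type naive dura. The naive groups overlapped, the deficient stroke arrays lay above both of them, and the wild-type stroke arrays lay above all others. The response was 0.88 in deficient and 4.21 in wild-type dura, a difference of -3.32 ± 0.25 (SE, 3 arrays per group; limma, adjusted p = 8.19e-06). It kept its call in every alternative.

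Timp1, the secreted inhibitor of metalloproteinases, read 12.45, 12.20 and 12.03 in deficient stroke dura and 11.41, 11.08 and 11.30 in deficient naive dura, against 12.81, 12.98 and 13.11 in wild-type stroke dura and 11.15, 10.87 and 10.86 in wild-type naive dura. Stroke arrays were above naive arrays in both categories, and the gap was wider in wild type, with a difference of -1.04 ± 0.18 (adjusted p = 0.0209). Mmp9, the gelatinase that neutrophils store in granules, read 10.74, 10.74 and 10.28 in deficient stroke dura and 10.92, 10.69 and 11.17 in deficient naive dura, against 10.89, 11.56 and 10.99 in wild-type stroke dura and 9.92, 10.19 and 9.92 in wild-type naive dura. Its wild-type naive arrays were lowest, all below the deficient naive arrays, so that its difference of -1.48 ± 0.29 (adjusted p = 0.0414) split into 0.92 before and -0.56 after stroke. Adamts5 and Adamts4, proteases that cut the core proteins of aggrecan and versican, had differences of -1.52 ± 0.19 and -1.41 ± 0.25. Of the 14 measured metalloproteinase and inhibitor genes of the list, 3 were lower at the threshold and 0 higher, and 8 were lower and 0 higher at an unadjusted p under 0.05. Over all tested probe sets 0.342% were lower and 0.00924% higher at the threshold. At an unadjusted p under 0.05 the shares were 4.32% lower and 3.04% higher. These shares are the background for the counts of each list below. The list's median was -0.36, beside 0.04 over all genes, with a median response of 0.05 in deficient and 0.39 in wild-type dura. Mmp14, the membrane-bound activator of other metalloproteinases, had -0.65 ± 0.19 (adjusted p = 0.264). Mmp3 and Adamts5 kept their calls without any single array. Mmp9, Timp1 and Adamts4 lost theirs without several, with adjusted p up to 0.13, 0.0822 and 0.0822.

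**Figure D3:**
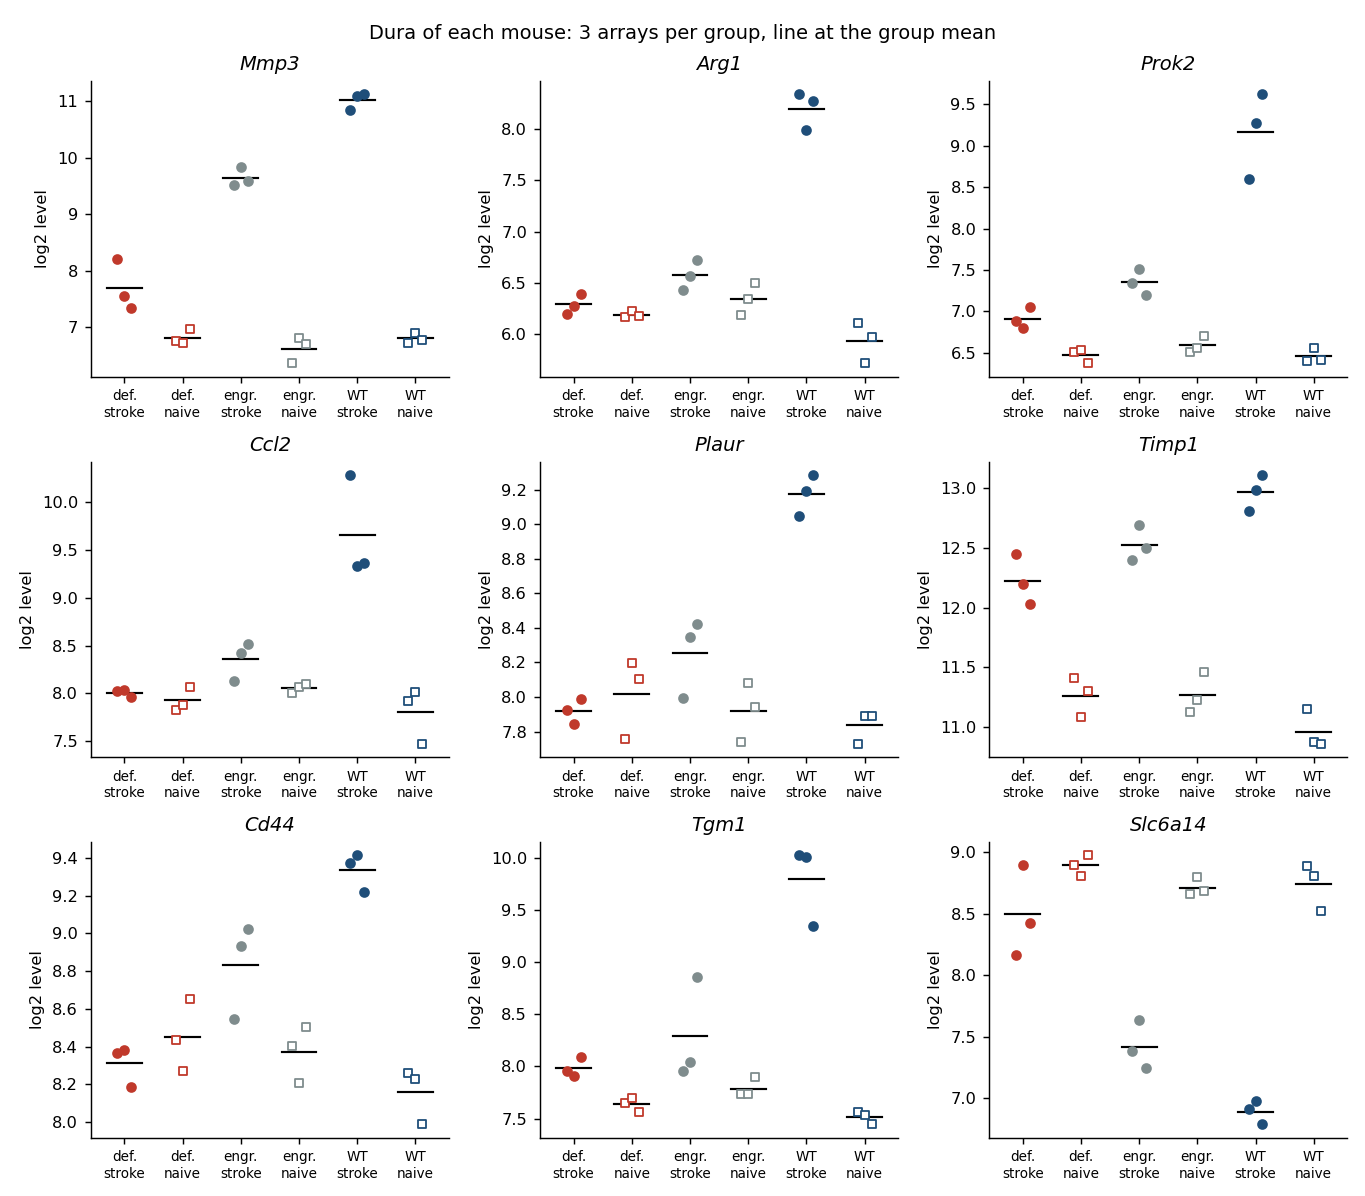
Log2 value of 9 genes on each of the 18 arrays, with groups in the order deficient stroke, deficient naive, engrafted stroke, engrafted naive, wild-type stroke and wild-type naive (1 point per mouse, line at the group mean). For Mmp3, Arg1 and Prok2 the 3 wild-type stroke arrays stand above all others, and for Slc6a14 they stand below all others.

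Genes of pericellular proteolysis by plasmin followed. Plaur, the cell surface receptor that holds urokinase, read 7.93, 7.85 and 7.99 in deficient stroke dura and 7.76, 8.20 and 8.11 in deficient naive dura, against 9.04, 9.19 and 9.29 in wild-type stroke dura and 7.73, 7.89 and 7.89 in wild-type naive dura. The deficient groups overlapped, and the wild-type stroke arrays were above all others, with a difference of -1.44 ± 0.18 (adjusted p = 0.00212). Plau, urokinase itself, read 8.48, 8.56 and 8.08 in deficient stroke dura and 8.47, 8.11 and 8.56 in deficient naive dura, against 9.38, 9.40 and 9.21 in wild-type stroke dura and 8.44, 8.05 and 8.17 in wild-type naive dura. Only wild-type dura showed a separation of stroke from naive arrays, and the difference was -1.12 ± 0.20 (adjusted p = 0.0209). Plat, the tissue plasminogen activator, had -0.68 ± 0.11, and Tfpi2, a Kunitz inhibitor of plasmin and other serine proteases, -1.27 ± 0.20. Of 10 measured genes in the plasminogen and coagulation list, 4 were lower at the threshold and 0 higher. At an unadjusted p under 0.05 there were 5 lower and 0 higher, the fifth being the urokinase inhibitor Serpinb2 with -0.58 ± 0.23. The median was -0.34, from median responses of 0.01 in deficient and 0.39 in wild-type dura. Procr, the endothelial protein C receptor, stands outside the list and had -0.99 ± 0.16. Plaur, Plat, Tfpi2 and Procr kept their calls without any single array. Plau lost its call without several arrays.

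The start regions of the genes were read for sequence motifs, since members that change together can be set beside the letters upstream of them. RefSeq promoters of GRCm38.p6, a build from the C57BL/6J strain and not from WBB6F1, were matched by symbol for 46 of the 74 genes, and the 250 bases before the start were searched on both strands. TGANTCA, the AP-1 site, was present in 10 of the 46 (21.7%), beside 6.11% of the 15613 tested genes with a promoter and 6.87% of all 27025 promoters. TTCNNNGAA, the STAT site, was in 2 of the 46 (4.35%), beside 6.7% of tested genes. The NF-kB site was in 4 (8.7%), beside 7.87%. The 10 genes with the AP-1 letters were Mmp3, Prok2, Plaur, Krtdap, Dmkn, Fblim1, Procr, Met, Sbsn and Il22ra1, and 3 of these, Krtdap, Dmkn and Sbsn, are neighbours. Each motif was counted on its own, so that matches of different motifs may overlap. A match is a description of the letters and not of binding, and these shares carry no test. Of the 5 genes of smallest p with a promoter in the table, Serpinb9b and Raet1d had no AP-1 match, and Mmp3, Plaur and Prok2, a myeloid signalling peptide, had 1 each. Their upstream 250 bases are shown, 5′ to 3′ on the gene's strand with the AP-1 letters in capitals, to show where the element lies in the 3 of these 5 genes that hold it. Mmp3 lies on the plus strand (chr9:7445572-7445821), Prok2 on the minus strand (chr6:99726393-99726642) and Plaur on the plus strand (chr7:24462233-24462482), and the first base of the motif is 46, 67 and 69 bases upstream of the start.
Mmp3: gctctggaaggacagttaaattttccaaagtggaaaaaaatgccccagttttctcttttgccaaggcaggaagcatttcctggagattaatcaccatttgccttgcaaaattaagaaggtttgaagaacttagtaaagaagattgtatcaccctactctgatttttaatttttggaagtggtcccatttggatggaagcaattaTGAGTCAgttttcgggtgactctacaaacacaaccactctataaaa
Prok2: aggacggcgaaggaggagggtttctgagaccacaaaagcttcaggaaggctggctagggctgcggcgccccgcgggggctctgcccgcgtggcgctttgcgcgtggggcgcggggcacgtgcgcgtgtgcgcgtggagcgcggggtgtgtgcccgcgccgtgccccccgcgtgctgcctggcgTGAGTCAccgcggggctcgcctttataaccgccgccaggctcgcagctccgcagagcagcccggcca
Plaur: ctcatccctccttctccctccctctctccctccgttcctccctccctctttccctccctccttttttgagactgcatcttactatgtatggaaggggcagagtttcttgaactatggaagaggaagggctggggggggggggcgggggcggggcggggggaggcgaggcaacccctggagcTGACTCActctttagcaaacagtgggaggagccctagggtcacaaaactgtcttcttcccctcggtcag

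Hyaluronan and the matrix laid down in early repair formed a further group among the called genes, which was put together after their values were seen and carries no test. Has2 is the main synthase of hyaluronan in inflamed tissue, and Cd44 is its receptor. Cd44 read 8.37, 8.38 and 8.18 in deficient stroke dura and 8.44, 8.27 and 8.65 in deficient naive dura, against 9.37, 9.41 and 9.22 in wild-type stroke dura and 8.26, 8.23 and 7.99 in wild-type naive dura. The wild-type stroke arrays stood alone, with a difference of -1.31 ± 0.18 (adjusted p = 0.00473). Has2 had -1.14 ± 0.17 (adjusted p = 0.00519), although 3 of its 4 groups were in the dim range, below 6.09, where the size is uncertain. Cemip, a hyaluronan-degrading protein, differed through a deficient response of -0.63 beside 0.27 in wild type. Vcan, the hyaluronan-binding proteoglycan versican, had -1.08 ± 0.21, and Prg4, the lubricating proteoglycan of joints, -1.15 ± 0.16. Itga5, a subunit of the fibronectin receptor, had -0.91 ± 0.16, Lox, which cross-links collagen and elastin, -1.14 ± 0.23, and Tgm2, a cross-linking transglutaminase, -0.82 ± 0.16. Cd44, Has2 and Prg4 kept their calls in all 12 fits that leave out 1 array, and Cemip in 8. Lox and Vcan kept theirs in 1, Tgm2 in 2 and Itga5 in 4, with adjusted p up to 0.139, 0.125, 0.135 and 0.0822 (limma).

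In the provisional matrix and scar list 2 of 12 measured genes were lower and 0 higher, with a median of -0.25 and 6 lower and 0 higher at an unadjusted p under 0.05. No collagen passed: of 18 measured, 0 were called and 5 were lower and 0 higher at an unadjusted p under 0.05 (limma). Col4a1, of basement membranes, had -0.55 ± 0.12 (adjusted p = 0.0863) and Col3a1, a fibrillar collagen, -1.02 ± 0.29 (adjusted p = 0.242). Among the 12 measured genes of the cartilage and tendon matrix list, Prg4 was the 1 called lower and 0 were called higher. Fmod, Comp and Chad, which encode matrix proteins of tendon and cartilage, had positive values of 0.64 ± 0.13, 0.82 ± 0.26 and 1.01 ± 0.39 (adjusted p = 0.0599, 0.309 and 0.503). Their responses were -0.56, -1.09 and -0.84 in deficient and -1.19, -1.91 and -1.84 in wild-type dura.

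Signals that attract or come from blood leukocytes differed for some genes only. Ccl2, the chemokine that draws monocytes through the receptor CCR2, read 8.03, 8.04 and 7.96 in deficient stroke dura and 7.83, 7.88 and 8.07 in deficient naive dura, against 10.29, 9.33 and 9.37 in wild-type stroke dura and 7.92, 8.01 and 7.47 in wild-type naive dura. The deficient groups overlapped, and the wild-type stroke arrays were above all others, 1 of them by about 1 unit more than the rest. The difference was -1.78 ± 0.28 (adjusted p = 0.00973). Ccl7, which binds the same receptor, read 8.21, 8.10 and 7.81 in deficient stroke dura and 8.13, 8.00 and 8.21 in deficient naive dura, against 9.93, 9.35 and 9.03 in wild-type stroke dura and 8.33, 8.05 and 7.79 in wild-type naive dura. Its pattern was the same in order, with -1.46 ± 0.30 and an adjusted p of 0.0485 close to the threshold, and it kept the call in 2 of the 12 fits that leave out 1 array. Il11, a cytokine that acts on fibroblasts and other stromal cells, had -1.42 ± 0.28 (adjusted p = 0.0416), with 0.14 in deficient and 1.56 in wild-type dura.

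Il6, the main inducer of the acute phase response, did not pass. It read 4.86, 4.54 and 4.46 in deficient stroke dura and 4.42, 4.48 and 4.52 in deficient naive dura, against 6.30, 5.14 and 8.15 in wild-type stroke dura and 4.44, 4.75 and 4.52 in wild-type naive dura. The wild-type stroke arrays were all higher than the rest, spread over about 3 units, and the other 3 groups were in the dim range. The difference was -1.81 ± 0.75 (limma, adjusted p = 0.565). It was -1.001 without wild-type stroke 3 and -2.51 without wild-type stroke 2, and passed in neither fit. Over the cytokine and chemokine list 3 of 34 measured genes were lower and 0 higher, with 12 lower and 1 higher at an unadjusted p under 0.05 and a median of -0.15. Ccl3, a chemokine made by activated macrophages, had -0.88 ± 0.20 (adjusted p = 0.0987).

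Receptors and intracellular mediators of cytokine signals were among the called genes too. Socs3, the feedback inhibitor switched on by STAT3, read 8.94, 8.43 and 8.69 in deficient stroke dura and 8.29, 8.30 and 8.24 in deficient naive dura, against 9.54, 9.47 and 9.70 in wild-type stroke dura and 8.08, 8.10 and 8.14 in wild-type naive dura. Stroke arrays exceeded naive arrays in both categories, by 0.41 in deficient and 1.46 in wild-type dura, a difference of -1.05 ± 0.16 (adjusted p = 0.00774). A second Socs3 probe set gave -0.54 ± 0.18 (adjusted p = 0.357). Tnfrsf12a, the receptor for the cytokine TWEAK, had -1.08 ± 0.15, Il13ra1, a chain of the interleukin 13 receptor, -0.77 ± 0.11, and Il22ra1 and Il1rl2, receptor chains for interleukins 22 and 36, -0.89 ± 0.18 and -0.66 ± 0.13. Tnfrsf23, a mouse decoy receptor for the death ligand TRAIL, had -1.52 ± 0.20 (adjusted p = 0.0039). Of the 14 measured acute phase and STAT3 target genes, Socs3 and Timp1 were lower and 0 were higher, with 5 lower and 0 higher at an unadjusted p under 0.05. The median was -0.38, from 0.16 in deficient and 0.93 in wild-type dura. Osmr, the oncostatin M receptor, had -0.80 ± 0.17 (adjusted p = 0.0595) and Bcl3, a nuclear partner of NF-kB, -0.92 ± 0.23 (adjusted p = 0.15).

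Growth factors and transcription factors completed the signalling genes. Hbegf, a ligand of the EGF receptor, had -1.10 ± 0.16, Met, the receptor for hepatocyte growth factor, -1.04 ± 0.18, and Inhba, the activin A subunit, -1.07 ± 0.21. Of the 12 fits that leave out 1 array, Hbegf kept its call in 12, Met in 10 and Inhba in 1. Fosl1, an AP-1 subunit, had -0.70 ± 0.11 (adjusted p = 0.0112), with responses of 0.21 in deficient and 0.91 in wild-type dura, and was the 1 member called of 15 in the immediate early list. Jun, another AP-1 subunit, had -0.82 ± 0.18 (adjusted p = 0.0863) and Btg2, which restrains growth, 0.47 ± 0.16 (adjusted p = 0.353). In that list 2 were lower and 1 higher at an unadjusted p under 0.05, and the median was -0.22. Myc, a driver of growth, had -1.11 ± 0.20 with a deficient response of -0.32 beside 0.80 in wild type.

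Markers of infiltrating monocytes and macrophages were led by Arg1, arginase, which macrophages switch on in type 2 immunity and repair. It read 6.20, 6.28 and 6.40 in deficient stroke dura and 6.17, 6.23 and 6.17 in deficient naive dura, against 8.33, 7.98 and 8.26 in wild-type stroke dura and 6.11, 5.72 and 5.98 in wild-type naive dura. Only the wild-type stroke arrays were raised, and the deficient groups overlapped. The difference was -2.16 ± 0.16 (adjusted p = 8.19e-06), and the wild-type naive mean of 5.94 was in the dim range. Of 18 measured genes in the list, Arg1 and Vcan were lower and 0 were higher, with 5 lower and 0 higher at an unadjusted p under 0.05 and a median of -0.28. Of the 18, 14 were below 0 and 4 above 0. Those above 0 were Gpnmb with 0.61 ± 0.54, Chil3 with 0.16 ± 0.58, Adgre1 with 0.10 ± 0.21 and Csf1r with 0.10 ± 0.13. Cd14, the lipopolysaccharide co-receptor, had -0.74 ± 0.17 and Msr1, a scavenger receptor, -0.90 ± 0.20 (adjusted p = 0.0879 for each). Hmox1, which breaks down haem, read 9.72, 9.25 and 9.27 in deficient stroke dura and 9.13, 8.93 and 9.33 in deficient naive dura, against 11.15, 10.57 and 10.52 in wild-type stroke dura and 9.40, 9.18 and 9.29 in wild-type naive dura. Its wild-type stroke arrays were above all others (difference -1.18 ± 0.24, adjusted p = 0.046), and it was the 1 called of 10 in the haem and iron list. Slc39a14, a transporter of zinc and iron, had -1.12 ± 0.18.

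Prok2, a secreted prokineticin that myeloid cells make under inflammatory signals, read 6.89, 6.80 and 7.05 in deficient stroke dura and 6.51, 6.53 and 6.37 in deficient naive dura, against 8.60, 9.28 and 9.62 in wild-type stroke dura and 6.40, 6.55 and 6.41 in wild-type naive dura. Stroke arrays were above naive arrays in both categories, and the difference was -2.27 ± 0.25 (adjusted p = 0.000695). Among neutrophil markers, Mmp9 was the 1 called lower of 12 measured, 0 were higher, and the list median was -0.04, which changed sign without some arrays (-0.14 to 0.08). At an unadjusted p under 0.05 there were 4 lower and 0 higher, among them Clec4e with -0.81 ± 0.27 and Trem1 with -0.56 ± 0.16, receptors that amplify myeloid activation. Of the 12, 7 were below 0 and 5 above 0. Those above 0, which are named here after their values were seen, were the granule and surface genes S100a8 with 1.23 ± 0.62, S100a9 with 0.93 ± 0.54, Retnlg with 0.79 ± 0.53, Ly6g with 0.72 ± 0.49 and Mmp8 with 0.55 ± 0.54 (adjusted p = 0.739 to 0.932). The mean over the neutrophil list was 7.76 to 7.97 in deficient stroke dura and 7.10 to 7.40 in deficient naive dura, against 8.33 to 8.86 in wild-type stroke dura and 7.76 to 8.24 in wild-type naive dura. Wild-type dura was higher before stroke as well as after it. Mmp9 went the other way in naive dura, with means of 10.93 in deficient and 10.01 in wild-type dura. All other measured members of the list had lower naive means in deficient dura. Which cells the Mmp9 signal came from was not tested. Morrbid, a long noncoding RNA that prolongs the life of short-lived myeloid cells in mice, had -0.75 ± 0.10 (adjusted p = 0.00473), with -0.05 in deficient and 0.70 in wild-type dura.

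Epithelial and surface genes unusual for dura were among the largest differences. Krtdap, a secreted peptide of differentiating keratinocytes, read 6.79, 5.89 and 6.20 in deficient stroke dura and 5.27, 5.37 and 5.37 in deficient naive dura, against 8.28, 8.86 and 8.995 in wild-type stroke dura and 5.16, 5.63 and 5.27 in wild-type naive dura. Both naive groups were dim, both stroke groups lay above them, and the difference was -2.41 ± 0.34 (adjusted p = 0.00519). Dmkn and Sbsn, whose genes lie beside Krtdap on chromosome 7 and encode secreted epidermal proteins, had -1.44 ± 0.21 and -1.16 ± 0.21. Tgm1, the transglutaminase of the cornified layer, read 7.96, 7.91 and 8.09 in deficient stroke dura and 7.65, 7.70 and 7.56 in deficient naive dura, against 10.02, 10.01 and 9.35 in wild-type stroke dura and 7.56, 7.53 and 7.44 in wild-type naive dura. The wild-type stroke arrays were highest (difference -1.93 ± 0.28, adjusted p = 0.00519). Krtdap and Tgm1 were the only members called of 11 in the keratinocyte list, and the list as a whole had a median of 0.05 with 2 lower and 0 higher at an unadjusted p under 0.05. Its defining keratin Krt1 had 0.19 ± 0.12 (adjusted p = 0.852). Reg3g, an antibacterial lectin of epithelia, had -2.59 ± 0.37 (adjusted p = 0.00519) with 3 of 4 groups dim. Its arrays read 5.76, 5.86 and 5.51 in deficient stroke dura and 5.48, 5.47 and 5.39 in deficient naive dura, against 8.37, 7.55 and 9.14 in wild-type stroke dura and 5.57, 5.55 and 5.38 in wild-type naive dura. Of these 12 arrays, the 3 from wild-type stroke dura were the ones above the dim range. Msln, mesothelin of serosal linings, read 9.55, 8.73 and 9.50 in deficient stroke dura and 8.55, 8.11 and 8.16 in deficient naive dura, against 10.81, 10.62 and 11.22 in wild-type stroke dura and 8.05, 8.16 and 8.33 in wild-type naive dura. Stroke exceeded naive in both categories (difference -1.72 ± 0.29, adjusted p = 0.0145).

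Among immune surface and protease-inhibitor genes, Raet1d, a stress-induced ligand of the natural killer cell receptor NKG2D, had -1.93 ± 0.24 (adjusted p = 0.00212), from 0.63 in deficient and 2.56 in wild-type dura, whose naive mean was in the dim range. Serpinb9b, of the intracellular serpin family that includes the granzyme B inhibitor, read 6.96, 6.77 and 6.72 in deficient stroke dura and 6.75, 6.33 and 6.52 in deficient naive dura, against 8.83, 8.68 and 9.41 in wild-type stroke dura and 6.43, 6.76 and 6.39 in wild-type naive dura. The deficient groups overlapped and the wild-type stroke arrays stood alone (difference -2.17 ± 0.23, adjusted p = 0.000521). Serpinb1a, an inhibitor of neutrophil elastase, had -1.07 ± 0.21. G530011O06Rik, on the X chromosome, had -1.94 ± 0.39 (adjusted p = 0.0435) and kept the call in 1 of the 12 fits that leave out 1 array. Its arrays read 8.26, 8.77 and 8.12 in deficient stroke dura and 7.93, 8.26 and 7.63 in deficient naive dura, against 9.83, 9.46 and 9.82 in wild-type stroke dura and 7.17, 7.65 and 7.12 in wild-type naive dura. The deficient groups overlapped, and the naive groups overlapped at a single array.

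Genes of cell division had the lowest median of the 44 lists, although few passed singly. Kif20a, a kinesin of late mitosis, read 7.32, 7.21 and 6.89 in deficient stroke dura and 7.001, 6.59 and 6.76 in deficient naive dura, against 8.53, 8.53 and 8.17 in wild-type stroke dura and 6.97, 6.84 and 6.74 in wild-type naive dura. Its wild-type stroke arrays were above all others (difference -1.20 ± 0.22, adjusted p = 0.0298). It was the 1 called of 21 measured in the cell cycle list, and 0 were higher. At an unadjusted p under 0.05, 16 were lower and 0 higher, beside 4.32% and 3.04% of all tested probe sets. The median difference was -0.69, from 0.41 in deficient and 1.08 in wild-type dura. The median stayed between -0.89 and -0.57 when single arrays were left out and was -0.56 with covariates for the choroid plexus and neuron lists. Aurkb, the kinase of the chromosomal passenger complex, had -1.02 ± 0.26, Cenpf, a kinetochore protein, -0.77 ± 0.20 and Plk1, the polo-like kinase, -1.14 ± 0.35 (adjusted p = 0.163, 0.165 and 0.281). Outside the list, Foxm1, the transcription factor of mitotic genes, had -0.87 ± 0.17, and Chaf1b, a histone chaperone of replication, -0.87 ± 0.16.

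**Figure D4:**
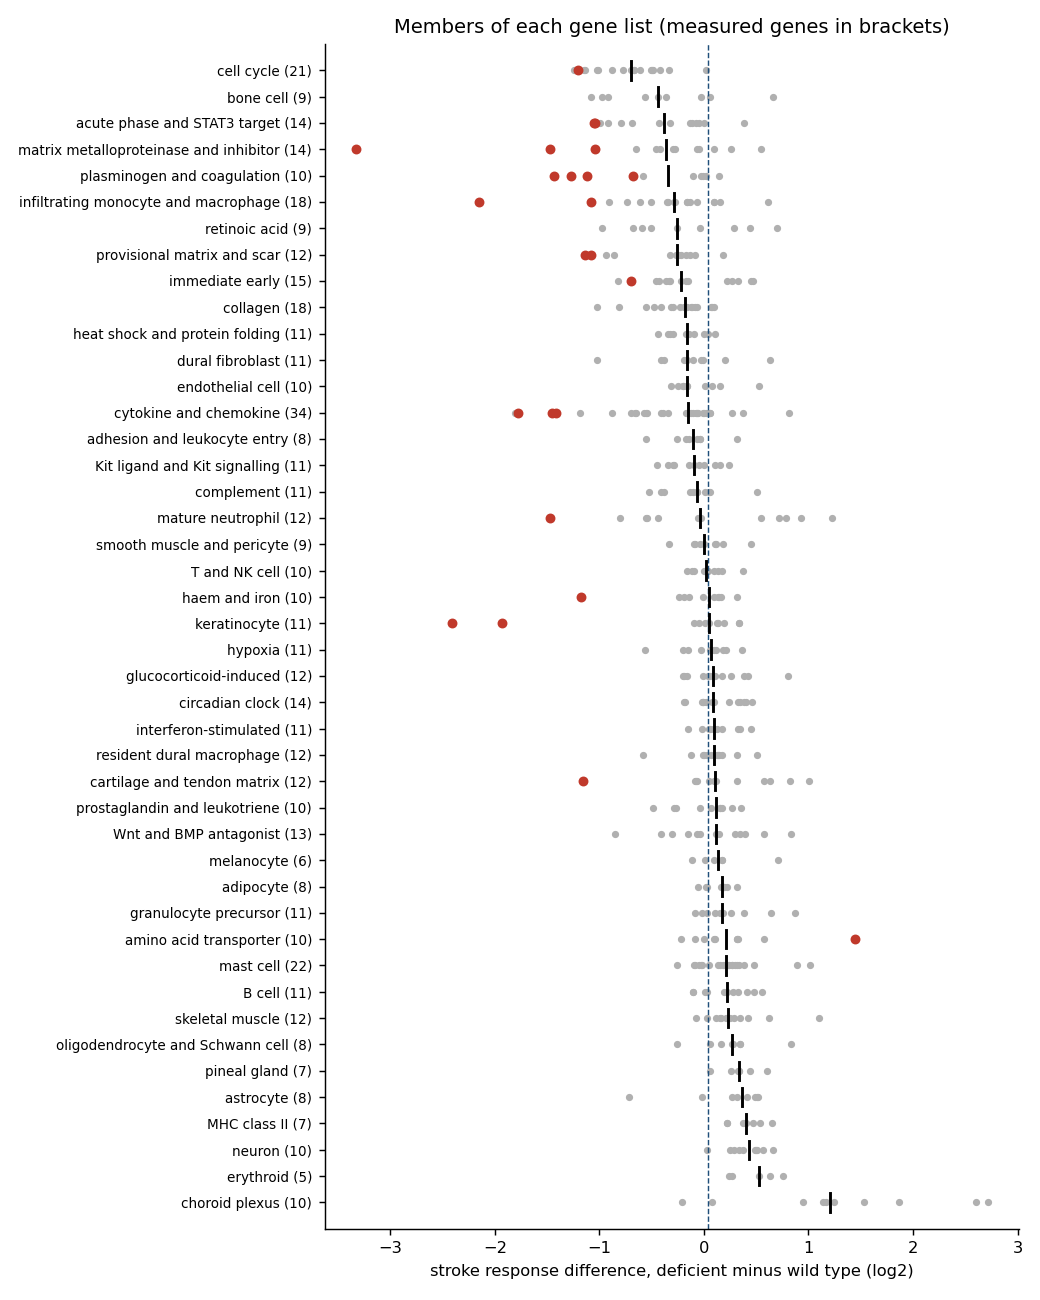
Stroke response difference (deficient minus wild type, log2) of every measured member of each gene list, 1 point per gene, with called genes in red, the list median as a black bar and the median of all genes as a dashed line. The cell cycle list has a median of -0.69 with 1 of 21 called, and the choroid plexus list a median of 1.21 with 0 of 10 called.

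Differences above 0 were few. Slc6a14, a transporter of neutral and cationic amino acids, read 8.17, 8.89 and 8.42 in deficient stroke dura and 8.90, 8.81 and 8.97 in deficient naive dura, against 6.91, 6.97 and 6.79 in wild-type stroke dura and 8.89, 8.81 and 8.52 in wild-type naive dura. The wild-type stroke arrays were below all others, and the deficient groups overlapped. The response was -0.40 in deficient and -1.85 in wild-type dura, a difference of 1.45 ± 0.21 (adjusted p = 0.00519), and the call was kept without any single array. Of 10 measured amino acid transporters it was the 1 called higher and 0 were lower, with 4 higher and 0 lower at an unadjusted p under 0.05 and a median of 0.21. Slc38a1 and Slc7a5, carriers of glutamine and of large neutral amino acids, had 0.32 ± 0.11 and 0.33 ± 0.14. Gm10706, a predicted gene, had 0.64 ± 0.12 (adjusted p = 0.0253), with means of 5.68 to 6.10 in the 4 groups, so that it was dim in 3 of them. Among genes that did not pass, the antigen-presenting MHC class II list had 0 of 7 called and 4 higher and 0 lower at an unadjusted p under 0.05 (limma). Its median was 0.40, from -0.08 in deficient and -0.56 in wild-type dura, and H2-Aa and H2-Ab1 had 0.65 ± 0.18 and 0.54 ± 0.18 (adjusted p = 0.224 and 0.355). Tef, a clock-controlled transcription factor, had 0.46 ± 0.10 (adjusted p = 0.0863).

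Markers of bone cells, a tissue that adjoins the dura, had differences below 0 for 7 of 9 measured genes and above 0 for 2, and none passed. Acp5 and Ctsk, the acid phosphatase and cathepsin of osteoclasts, had -1.08 ± 0.29 and -0.98 ± 0.26 (adjusted p = 0.193 and 0.184). Their naive means were 11.45 and 11.50 in deficient dura, against 10.43 and 10.73 in wild-type dura. Like Mmp9, they were thus higher in deficient dura before stroke. Sp7, a transcription factor of osteoblasts, had 0.66 ± 0.32 (adjusted p = 0.702) and is named here after its value was seen. Of 9 bone cell genes 0 were called, 3 were lower and 0 higher at an unadjusted p under 0.05 (limma), and the median was -0.44. The list mean was 8.92 to 9.29 in deficient stroke dura and 8.97 to 9.38 in deficient naive dura, against 8.80 to 9.42 in wild-type stroke dura and 8.64 to 8.88 in wild-type naive dura. The wild-type naive arrays lay below all deficient arrays and overlapped with the wild-type stroke arrays, and the part of bone tissue in the other results was not tested.

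Engrafted dura gave a further response, from arrays that enter the difference only through the shared estimate of the spread. For Mmp3 it read 9.51, 9.84 and 9.59 after stroke and 6.36, 6.81 and 6.70 in naive engrafted dura. That response of 3.02 lay between 0.88 in deficient and 4.21 in wild-type dura. Arg1 read 6.43, 6.57 and 6.73 in engrafted stroke dura and 6.19, 6.35 and 6.50 in engrafted naive dura, which overlapped, with a response of 0.23 beside 0.10 in deficient and 2.26 in wild-type dura. Over the 74 genes the engrafted response had a median of 0.32 and was above 0 for 71. It lay between the other responses for 64 of the 74, nearer to the deficient one for 61 and nearer to the wild-type one for 13. Vcan, with 1.04 in engrafted, 0.16 in deficient and 1.24 in wild-type dura, and Serpinb1a, with 1.06 in engrafted, 0.36 in deficient and 1.42 in wild-type dura, were of the smaller set. Tnfrsf12a, with 0.03 in engrafted, 0.09 in deficient and 1.17 in wild-type dura, and Nes, an intermediate filament of progenitor and reactive cells, with 0.02 in engrafted, -0.17 in deficient and 1.01 in wild-type dura, were of the larger. These counts describe genes picked for a gap between the other categories, so that a value between them carries no test.

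**Figure D5:**
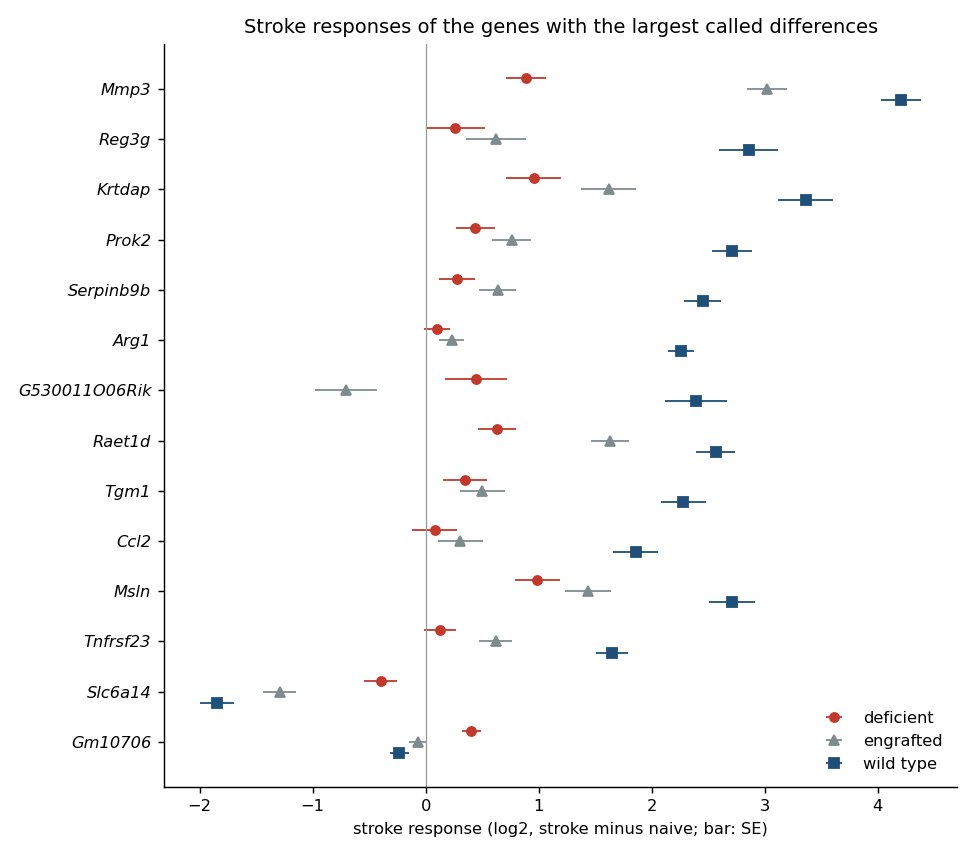
Stroke response (log2, mean ± SE from the fit, 3 arrays per group) of 14 genes in deficient, engrafted and wild-type dura. Mmp3 has responses of 0.88 in deficient, 3.02 in engrafted and 4.21 in wild-type dura, and Arg1 has 0.10 in deficient, 0.23 in engrafted and 2.26 in wild-type dura.

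Genes could also be chosen by the engrafted response alone and then read in the difference. In engrafted dura 241 probe sets passed an adjusted p of 0.05 (1.11% of those tested), 190 higher after stroke (0.878%) and 51 lower (0.236%). The 190 had a median response of 0.65 in engrafted, 0.33 in deficient and 0.81 in wild-type dura. Their difference was below 0 for 173 of 190, or 91.1%, beside 40.5% of all tested probe sets, with a median of -0.46. Among the 36 that rose at least 2-fold it was below 0 for 29 (80.6%) and above 0 for 7, with a median of -0.88. Of the 190, 27 were called lower and 0 higher, and 120 were lower and 0 higher at an unadjusted p under 0.05. Over all tested probe sets 0.342% were called lower and 4.32% were lower at an unadjusted p under 0.05. The engrafted response and the difference share 1 estimate of the spread. Choosing by the engrafted p therefore also favours probe sets of small spread, and counts of small p in the chosen sets are not independent of the choice. The 51 had median responses of -0.66 in engrafted, -0.39 in deficient and -0.58 in wild-type dura, and a median difference of 0.23. It was above 0 for 43 of the 51, and 1 was called higher, with 16 higher and 0 lower at an unadjusted p under 0.05. Some genes of large engrafted response had similar estimates in the other categories. Serpina3n, an acute phase protease inhibitor, had 1.42 in deficient and 1.75 in wild-type dura (difference -0.33 ± 0.22). Nr4a3, a nuclear receptor of the immediate early group, had -1.81 in deficient and -2.08 in wild-type dura (0.27 ± 0.31). Prtn3 and Ctsg, proteases of granulocyte precursors, had differences of 0.03 ± 0.44 and -0.08 ± 0.59, with signs that turned in some alternatives. With standard errors of that size, a difference in either direction is not excluded for Prtn3 and Ctsg.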

How the data were processed

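The deposited values of the authors are log2 values, 1 per probe set and array; the submitters' processing notes name RMA, affy and R 3.0.0 without saying what each did. They give no scan date or batch, so that none could be tested. No value was rescaled or removed. Of 34760 probe sets, 21640 had exactly 1 symbol and were tested, 1321 had several and 11799 were not in the annotation used. Symbols were updated by gene identifier to RefSeq of GRCm38.p6, which held 21553 of them.

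A mean for each of the 6 groups was fitted to 18 arrays (limma 3.58.1, R 4.3.3) and the spread was moderated by empirical Bayes, with 12 degrees of freedom from the residuals and 3.41 from the prior, so that the engrafted arrays enter the spread only. P values of each of the 4 contrasts were adjusted by Benjamini and Hochberg over all tested probe sets, at a threshold of 0.05 with no minimum change. The labels take replicates as separate mice, and 3 per group limit the precision. Genes with several probe sets (954) were represented by the one of highest mean. A group mean below 6.09, the lowest of the arrays' lower quartiles, is called dim.

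Named were the 12 largest negative calls, the 10 smallest p above 0, up to 4 members of smallest p per list, mast cell genes, Il6 and Ccl7 (followed up by the study's authors), and the genes of largest engrafted response. The other called genes are named because they passed. The comparison and the 44 lists, of 560 genes, were chosen with earlier results of these data known. The fit was tested on simulated data. Alternatives were leaving out each array, fitting the compared arrays alone, leaving out the dimmest 25% of probe sets, a further quantile normalization, a trended robust variance, array weights, the replicate number as a block, all probe sets, a minimum of 1.5-fold, covariates for the choroid plexus and neuron lists, and leaving out the 5 arrays lowest in Ttr. Python 3.11.15 with pandas 2.3.3 served for tables, and matplotlib 3.10.9 for figures.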

Additional observations from a re-analysis of the deposited data

Results flagged for a closer look

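All 76 called genes stand here because the difference in stroke response between deficient and wild-type mice passed the threshold in the main fit (limma interaction, adjusted p under 0.05). Of these genes 46 lost the call without at least 1 array. Values are differences, deficient minus wild type, on the log2 scale. Those already described were, for proteases and their inhibitors, Mmp3 at -3.32, Serpinb9b at -2.17, Adamts5 at -1.52, Mmp9 at -1.48, Plaur at -1.44, Adamts4 at -1.41, Tfpi2 at -1.27, Plau at -1.12, Serpinb1a at -1.07, Timp1 at -1.04 and Plat at -0.68. For the matrix they were Cd44 at -1.31, Prg4 at -1.15, Has2 and Lox at -1.14, Vcan at -1.08, Itga5 and Cemip at -0.91 and Tgm2 at -0.82. Secreted signals were Reg3g at -2.59, Prok2 at -2.27, Ccl2 at -1.78, Ccl7 at -1.46, Il11 at -1.42, Hbegf at -1.10 and Inhba at -1.07. Receptors and mediators were Raet1d at -1.93, Tnfrsf23 at -1.52, Tnfrsf12a at -1.08, Socs3 at -1.05, Met at -1.04, Procr at -0.99, Il22ra1 at -0.89, Il13ra1 at -0.77 and Il1rl2 at -0.66. Epidermal and mesothelial genes were Krtdap at -2.41, Tgm1 at -1.93, Msln at -1.72, Dmkn at -1.44 and Sbsn at -1.16. The remainder of those described were Arg1 at -2.16, G530011O06Rik at -1.94, Kif20a at -1.20, Hmox1 and Nes at -1.18, Slc39a14 at -1.12, Myc at -1.11, Foxm1 and Chaf1b at -0.87, Morrbid at -0.75 and Fosl1 at -0.70. Slc6a14 at 1.45 and Gm10706 at 0.64 were the 2 above 0.

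The other called genes are given here with what their products do. S100a6, a calcium-binding protein of stromal cells, had -1.20, from 0.20 in deficient and 1.41 in wild-type dura. Actin and adhesion genes were Fblim1, which links filamin to cell adhesions, at -0.90, the capping protein gene Capg at -0.80, the villin-like Vill at -0.65, the GTPase gene Rhoj at -0.52 and the Arp2/3 subunit gene Arpc1b at -0.46. Capg responded in both categories, by 0.74 in deficient and 1.54 in wild-type dura. Enzymes of small molecules were the retinol dehydrogenase gene Rdh10 at -0.97, Nt5e, which makes adenosine at the cell surface, at -0.92, Acat3, of acetyl-CoA metabolism, at -0.84, the nucleotide enzymes Dctd at -0.76 and Dnph1 at -0.74, and the AMP deaminase gene Ampd3 at -0.59. Rdh10, the first step from retinol to retinoic acid, had 0.07 in deficient and 1.04 in wild-type dura and kept its call in each alternative tried. Rdh10 stands outside the retinoic acid list. Of the 9 measured genes of that list, 0 were called and 4 were lower and 2 higher at an unadjusted p under 0.05 (limma). Among the lower was Stra6, the retinol carrier receptor, at -0.98 ± 0.22 (adjusted p = 0.0884).

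Proliferation and DNA repair genes were Pimreg, a mitotic regulator, at -0.66 and the excision repair gene Ercc1 at -0.57. Signalling genes were Phlda3, which restrains Akt, at -0.61, Pmepa1, a feedback inhibitor induced by TGF-beta, at -0.57, and the phosphatase inhibitor gene Ppp1r14b at -0.60. Secretory pathway genes were Tram2, at -0.66, and Lrrc59, of the endoplasmic reticulum, at -0.44. The membrane protease gene Adam9 had -0.48, Tmem100 -1.02, Glipr2 -0.95 and Plp2 -0.53. Further probe sets of Socs3, Plp2, Ppp1r14b, Morrbid, Il22ra1 and Arpc1b were also below 0 and did not pass, with adjusted p of 0.0717 to 0.838.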

How the results depend on the processing

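No called gene changed sign in any alternative, but the number of calls moved widely. For the difference (76), leaving out 1 array gave 31 to 117. Array weights gave 305 (41 higher, 264 lower), the covariates 40, and leaving out the 5 arrays lowest in Ttr 6 (0 higher), in a fit with 1 deficient naive array. The 12-array fit, leaving out the dimmest probe sets, quantile normalization, the trended variance, all probe sets and the 1.5-fold minimum gave 54 to 92. The 6 genes Arg1, Has2, Mmp3, Rdh10, Reg3g and Serpinb9b passed in each alternative that tested them, and Arg1, Has2 and Reg3g were not tested without the dimmest probe sets. Other described genes kept their calls in few of the 12 fits that leave out 1 array. Il1rl2, Serpinb1a and Foxm1 kept theirs in 2, Il11, Hmox1 and Il22ra1 in 3, and Myc and Kif20a in 4. The wild-type response (2352) gave 1371 to 2211 without 1 array, 1440 with its arrays alone, 756 at 1.5-fold, 1457 with covariates and 1368 without the low-Ttr arrays. The deficient response (54) gave 8 to 30, 1 with its arrays alone, 1326 with array weights, 196 with covariates, 28 at 1.5-fold and 15 without the low-Ttr arrays. The engrafted response (241) gave 60 to 396, 33 with its arrays alone, 394 with weights, 152 with all probe sets, 140 at 1.5-fold, 509 with covariates and 98 without the low-Ttr arrays. Signs of small differences turned: without 1 array Chil3 ran from -0.16 to 0.46, Prtn3 from -0.18 to 0.45 and Ctsg from -0.40 to 0.52. Prtn3 was -0.013 after quantile normalization. Ctsg was 0.21 with weights, 0.24 with covariates and 0.43 without the low-Ttr arrays. Nr4a3 was -0.14 with covariates and -0.53 without the low-Ttr arrays, and Serpina3n 0.15 without them. Why the counts moved was not tested. With the replicate number as a block the difference had 46 calls and the engrafted response 146. The deviations of same-numbered arrays had correlations of -0.57 to 0.50, with 4 of 18 over 0.1. Differently numbered arrays were not set beside them, so these values cannot decide whether the numbers pair the mice. Fits with 3 mice per group leave small differences unresolved, the median standard error being 0.14.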

Other observations

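With all 34760 probe sets tested, 54 passed for the difference, and 5 of them had several gene symbols or none. Of these 5, the stroke response difference, deficient minus wild type, was above 0 for 1 and below 0 for 4.

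Some lists had medians within about 0.1 of that of all genes, which was 0.04. Complement genes had a median difference of -0.07 over 11 measured, hypoxia genes 0.06 over 11, interferon-stimulated genes 0.10 over 11, prostaglandin and leukotriene genes 0.11 over 10 and resident dural macrophage markers 0.10 over 12, with 0 called in each (limma). At an unadjusted p under 0.05 there were 1 higher and 2 lower complement genes, 0 higher and 1 lower hypoxia gene, 0 interferon-stimulated and 0 prostaglandin and leukotriene genes in either direction, and 0 higher and 1 lower macrophage marker. Other lists lay further above it. Markers of red cell precursors had a median of 0.53 over 5, of the pineal gland 0.33 over 7, of skeletal muscle 0.23 over 12 and of B cells 0.22 over 11, with 0 called in each (limma) and 0 at an unadjusted p under 0.05. Markers of astrocytes had 0.37 over 8 and of oligodendrocytes and Schwann cells 0.27 over 8, again with 0 called. At an unadjusted p under 0.05 there were 2 higher and 1 lower astrocyte markers and 1 higher and 0 lower oligodendrocyte and Schwann cell marker.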
